A study of Mus musculus with 2 samples.

Results

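Cluster C03 is a population of tumor macrophages marked by the chemokine gene Ccl8 and the membrane protein gene Ms4a7. Its members are the cells that the authors' deposited annotation places in cluster C03 of the class labelled MF, and they number 919 of the 11456 cells in the series, or 919 of the 4065 MF cells. The cells came from tumors engrafted in wild-type mice (WT) and in mice whose heat shock factor 1 (HSF1) carries alanine in place of the serines at residues 303 and 307 (HSF1-S303/7A, here S303/7A). There was 1 library per genotype, with 374 C03 cells from WT and 545 from S303/7A. The design text speaks of pooling tumors from 4 mice, so single animals cannot be told apart, there are no replicates, and no difference between the genotypes was tested. Both libraries were made alike: tumors were digested for 30 min at 37 °C, living cells with and without CD45, the pan-leukocyte marker, were sorted apart and recombined 5 to 1 in favour of those with CD45, and 10x Genomics 3′ end libraries were made. Neither the tumor type nor the mutation's presence in the engrafted cells is given in the sources used here.

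Macrophages of this kind are described in many tissues as resident-type cells: they take up debris and lipoproteins through scavenger and folate receptors, hold lysosomal enzymes and complement C1q, and secrete chemokines of the CCL2 family that attract monocytes. Ccl8 and Ccl12 encode such chemokines, Pf4 encodes platelet factor 4, Folr2 a folate receptor, Apoe the lipid carrier apolipoprotein E, and Selenop the selenium carrier selenoprotein P. HSF1 is the transcription factor that drives chaperone genes under proteotoxic stress, and phosphorylation at the serines replaced here is known to restrain it.

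The deposited values could be turned back into whole UMI counts, a UMI being a tag on 1 captured RNA molecule. Levels are given per gene as the mean over cells of UMIs per 10000 UMIs of the cell, and differences as log2 ratios after adding 0.1 to both levels, which shrinks the difference of low genes. C03 cells of the S303/7A library were sequenced more deeply, with a median of 13123 UMIs per cell against 6554.5 in WT and of 3015 detected genes against 1959.5. The median mitochondrial share was 3.58% in WT and 3.41% in S303/7A. The libraries share 48 cell barcodes, none of them between C03 cells of one library and C03 cells of the other, and 6 C03 barcodes also occur somewhere in the opposite library. Intervals given with ratios are exact 95% intervals for counting error only.

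The macrophage label held. C03 cells carried the general macrophage genes Lyz2 (63.4 UMIs per 10000 in WT and 107 in S303/7A), C1qa (55.6 and 73.4), Csf1r (5.43 and 5.37) and Adgre1 (3.12 and 3.23). Most genes that define other lineages were near 0: the 11 T cell markers summed to 0.626 in WT and 0.84 in S303/7A, against 30.3 and 26.8 in MF cluster C05. The 8 natural killer cell markers summed to 0.505 and 0.365, and 13 fibroblast and tumor markers to 1.95 and 0.956, with the keratin genes Krt8 and Krt18 at 0 in both libraries. The B cell genes Ms4a1 and Jchain were at 0, though Ighm stood at 1.93 and 1.51, and of the dendritic cell list Bst2, which is also interferon-induced, stood at 13 and 10.1 and the other 10 genes under 0.1 each. All 7 markers that name the cluster were above the mean of the other 4 MF clusters (C02, C05, C09 and C13) in both libraries.

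Ccl8 averaged 33.2 in WT and 35.4 in S303/7A. In the other clusters it ran from 1.25 in C02 to 26.8 in C13 in WT, and from 2.42 in C02 to 29.3 in C09 in S303/7A, so C03 had the highest level but C13 and C09 were not far below. Ms4a7, the marker with the largest ratio over the other clusters in both libraries, stood at 13.6 and 13.3 in C03 and at 8.96 or less elsewhere. Apoe stood at 67.8 and 216, against at most 42.6 in WT and 108 in S303/7A in another MF cluster. Selenop was 11 and 24.7, with 7.74 in C13 as the next level in WT and 13.8 in C09 in S303/7A. For these genes C03 ranked first of the 5 clusters in each library. Folr2 was low even in C03, at 1.02 and 2.23, and C13 came close in WT at 0.981. Pf4 did not single out C03: its 14.3 in WT lay below the 15.1 of C13, and its 22.3 in S303/7A was matched by 21.9 in C09. Ccl12 was likewise higher in C13 than in C03 in WT, at 18.1 against 16.9, but not in S303/7A, at 11.4 against 16.6. Cluster C07, of the class labelled Mo and rich in the monocyte genes Ly6c2 and Plac8, was below C03 for each of the 7, with Ccl8 at 1.03 and 0.824 and Pf4 at 0.211 and 0.572.

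**Figure D1:**
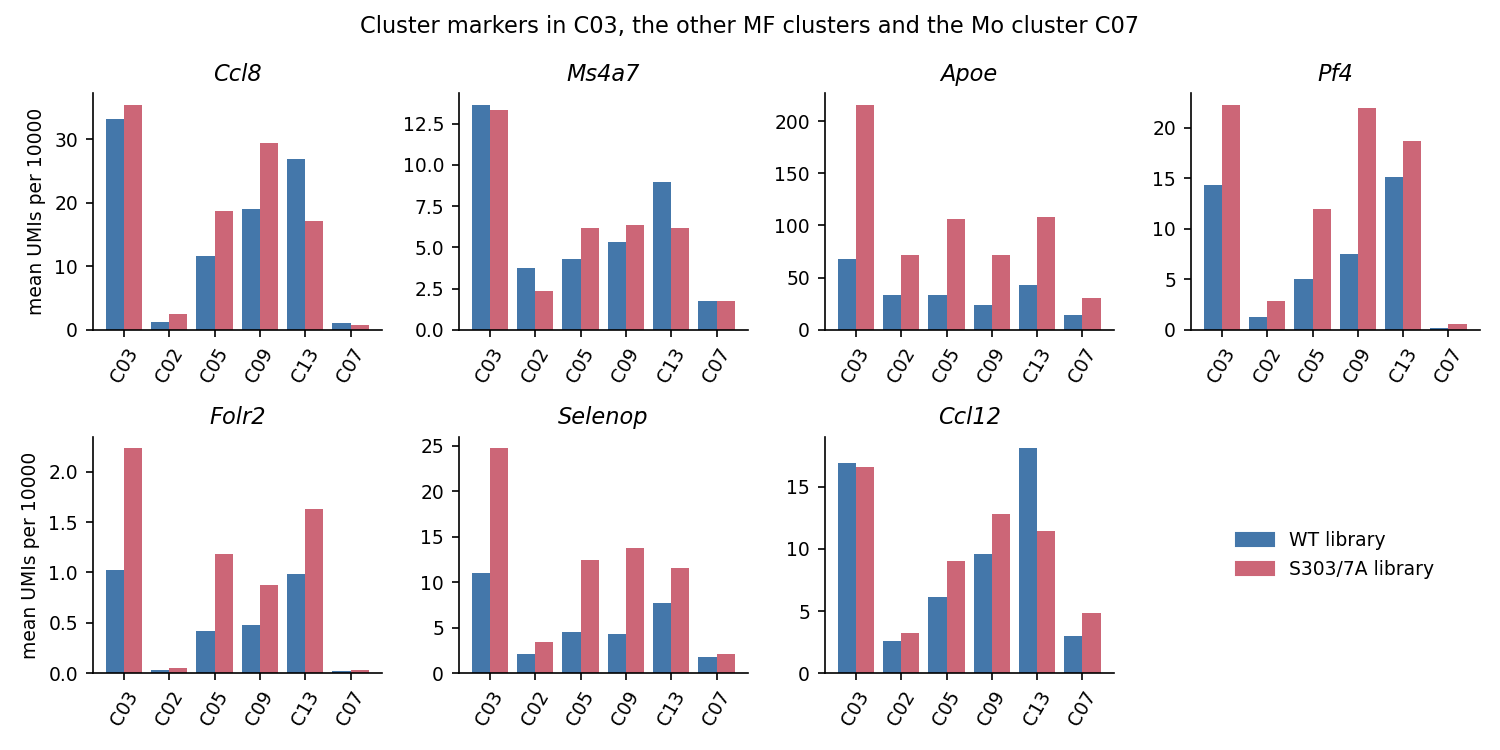
Mean level (UMIs per 10000, bars from 0) of the 7 markers in C03, the other 4 MF clusters and cluster C07 of the class Mo, with 1 bar per library. Ms4a7, Apoe, Selenop, Ccl8 and Folr2 are highest in C03 in both libraries, whereas Pf4 and Ccl12 in WT are slightly higher in C13.

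Single C03 cells varied widely in the chemokine gene Ccl8. Ccl8 was without a UMI in 56 of 374 WT cells and 63 of 545 S303/7A cells, the median cell held 11 and 11.8 UMIs per 10000, and the 90th percentile was 85 and 105. Ms4a7 was much more even, with 10th and 90th percentiles of 2.93 and 30.4 for the WT cells and of 3.28 and 24.7 for those of S303/7A, and it was missing from only 9 and 7 cells. After each cell had been thinned to 1000 UMIs to remove the difference in depth, which lost no C03 cell, Ccl8 was found in 61.2% (56.1% to 66.2%) of WT and 60.2% (55.9% to 64.3%) of S303/7A cells. In C02, whose cells have a median depth of 5035.5 and 12318 UMIs, the thinned shares were 9.83% and 8.17%. At least 5 of the 7 markers were found together in 90.6% of WT and 96.7% of S303/7A cells before thinning.

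The 4 chemokine genes of the CCL2 family lie in 1 stretch of chromosome 11 in the mouse genome build GRCm38, in the order Ccl2 (chr11:82035571-82037453), Ccl7 (chr11:82045712-82047525), Ccl12 (chr11:82101845-82103400) and Ccl8 (chr11:82115185-82116799), and all were above the mean of the other MF clusters in C03. Ccl7 stood at 11.1 in WT and 9.39 in S303/7A, against means of 5.01 and 5.41, and Ccl2 at 6.03 and 6.19 against 4.02 and 4.11. C13 was higher still for Ccl2, at 7.41 and 7.07. Other CC chemokine genes were below that mean: Ccl5, which draws T cells, stood at 9.41 and 5.30 against 17.2 and 6.74, and Ccl3 at 0.71 and 0.836 against 1.61 and 0.998.

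Against the mean of the other MF clusters, more genes were past 2-fold lower in C03 than past 2-fold higher. That mean is raised by any 1 cluster with a high level, so a low gene need not be low in C03 alone. Of 7318 genes found in at least 10% of the cells of an MF cluster in each library, 11 were past 2-fold higher in C03 in both libraries (0.15%) and 167 past 2-fold lower (2.28%). The clusters were made from these same genes, so the counts describe C03 and test nothing, and after thinning to 1000 UMIs they were 5 and 61. The 11 were Ms4a7, Igf1, Selenop, Tmem86a, Cp, Ccl8, Smagp, Cd63, Hpgds, Apoe and Olfml3. Igf1, which encodes insulin-like growth factor 1, stood at 0.942 and 1.29 against means of 0.303 and 0.498. Cp, the copper-carrying ferroxidase ceruloplasmin, stood at 0.462 and 0.495 against 0.159 and 0.148, and Hpgds, which makes prostaglandin D2, at 1.44 and 2.02 against 0.649 and 0.932. Among the next 9 genes were the complement genes C1qa, C1qb and C1qc, with log2 ratios between 0.89 and 1.03, the adhesion receptor gene Vcam1 (1.28 in WT and 0.94 in S303/7A) and the antibody-recycling receptor gene Fcgrt (0.99 and 0.88). Of the 20 highest genes, C03 had the top level of the 5 clusters for 19 in each library, the exceptions being Olfml3 in WT and Vcam1 in S303/7A, and the next cluster was C13 for 18 in WT and 11 in S303/7A.

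**Figure D2:**
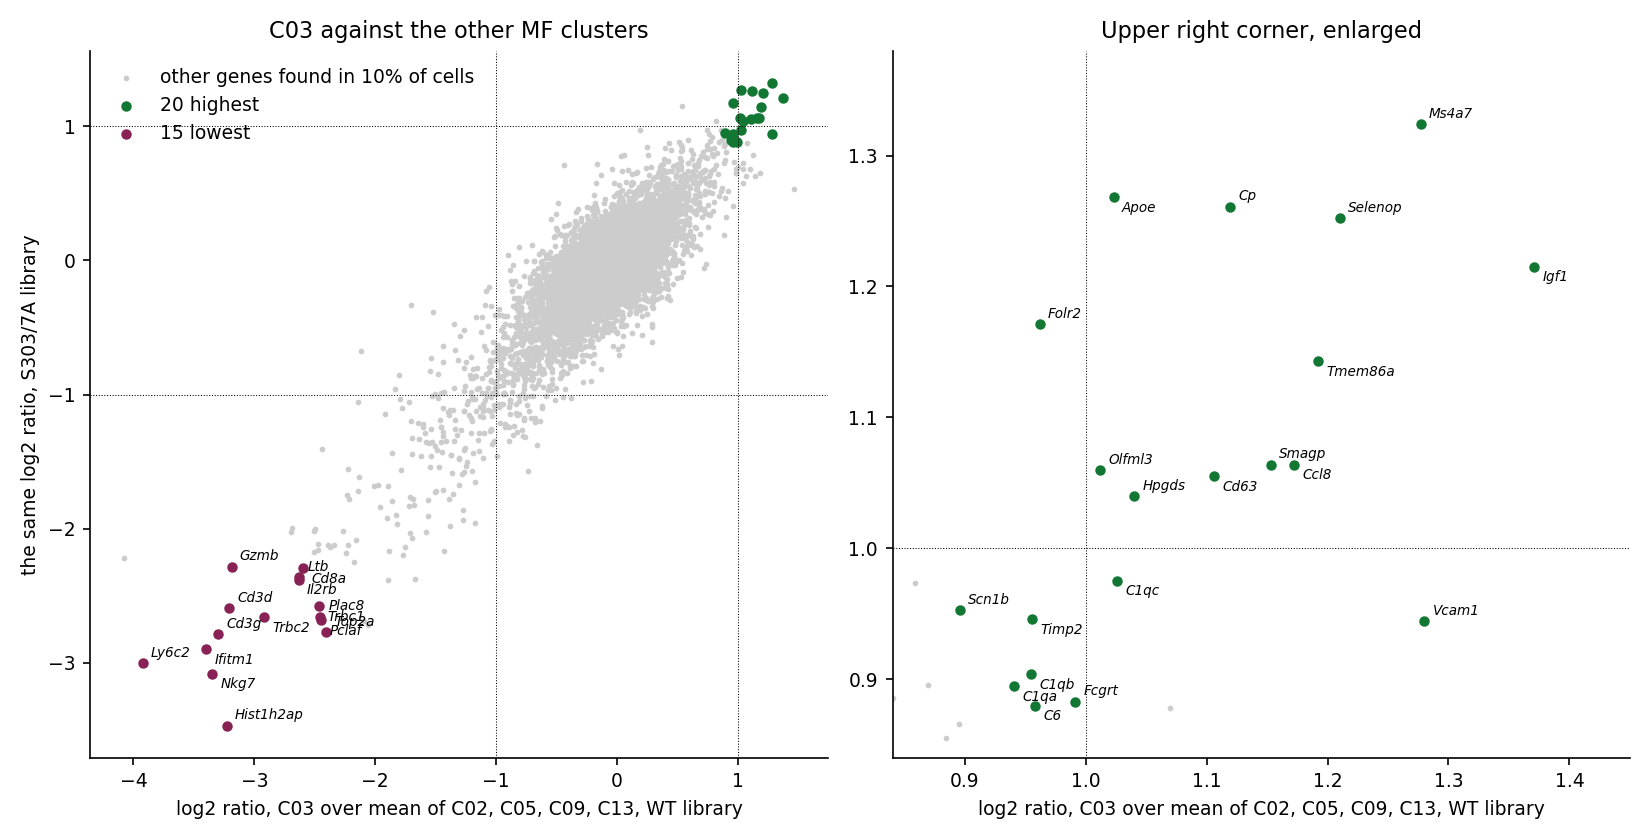
Log2 ratio of C03 over the mean of the other 4 MF clusters, in the WT library (horizontal axis) and the S303/7A library (vertical axis), with 1 point per gene. Dotted lines mark 2-fold, the right panel enlarges the 20 highest genes, and the 15 lowest reach -3.92 in WT and -3.47 in S303/7A.

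The lowest genes fell into 3 sets, each highest in another cluster. T and natural killer cell genes (Nkg7, Cd3g, Trbc2, Cd3d, Trbc1, Il2rb, Ltb, Cd8a and Gzmb) were highest in C05. There Cd3g reached 5.45 in WT and 4.84 in S303/7A, against 0.071 and 0.126 in C03. In C02 it was as low, at 0.105 and 0.0863, so the low level was not particular to C03. The proliferation genes Hist1h2ap, Pclaf and Top2a were highest in C13, and Ly6c2, Ifitm1 and Plac8 in C02. Ly6c2 and Plac8 mark monocytes and their recent offspring and were higher still in C07. Ifitm1 was not, at 3.08 and 3.21 in C07 against 5.75 and 5.97 in C02. Ly6c2 stood at 0.623 and 0.206 in C03 against 26.3 and 5.45 in C02, and was also low in C13, at 0.902 and 0.386. Ly6c2 shares 47.7% of the 31-base words in the last 500 bases of its transcript with other genes, Ly6c1 most, so its reads may be divided between copies.

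Gene lists describe C03 by function and are not separate from the genes above. The resident-type list holds Selenop, Igf1, Folr2 and Pf4, the lysosome list Cd63 and the lipid list Apoe. Their likeness to the gene ranking is partly built in and supports nothing further. All genes compared had a median log2 ratio of C03 over the other MF clusters of -0.10 in WT and -0.08 in S303/7A, with 1802 of 7318 higher and 3721 lower in both. Of the 24 genes of the resident-type list 13 were compared and the rest were too low, and 12 were higher in both libraries (medians 0.75 and 0.74). Without a filter on low values the mean of the 2 medians fell from 0.74 to 0.47. Among the 12 were Stab1, a scavenger receptor (2.99 and 4.09 against 1.48 and 2.41), and Gas6, a bridge to dying cells (1.25 and 2.18 against 0.707 and 1.24). Of 24 lysosome and cathepsin genes 22 were higher (0.41 and 0.49), led by Cd63 (11 and 13.6 against 5.04 and 6.5) and Ctsb (22.2 and 25.8 against 12.1 and 13.8). All 6 Fc receptor genes were higher (0.41 and 0.58), as were 13 of 16 lipid-handling genes (0.44 and 0.40) and 11 of 14 iron and heme genes (0.38 and 0.56). Lower in both libraries were 14 of 15 monocyte genes (-1.54 and -1.44), 22 of 22 cell cycle genes (-1.23 and -1.48), 19 of 20 hypoxia and glycolysis genes (-0.49 and -0.38) and 17 of 19 immediate early genes (-0.68 and -0.35). Cluster C13 shared much of this: in WT its resident-type list summed to 45.4 against 46.6 in C03 and its monocyte list to 14.6 against 15, while in S303/7A they stood at 55.6 against 78.8 and 13.3 against 8.9. Its immediate early list was lower than that of C03, at 33.5 against 35 in WT and 34.6 against 41.7 in S303/7A. Ccr2, the receptor by which monocytes enter tissue, stood at 1.28 and 0.635 against 3.02 and 2.76. Pgk1, a glycolytic enzyme, stood at 2.39 and 2.15 against 3.98 and 3.46. Since these ratios are against a mean, some lists were not extreme in C03. The cell cycle list summed to 6.775 and 6.506 in C02, below the 8.872 and 7.421 of C03. The hypoxia and glycolysis list summed to 51.32 and 51.72 in C09, against 52.67 and 56.12 in C03. The Fc receptor list was higher in C02 than in C03 in WT, at 74.75 against 71.75, but not in S303/7A, at 63.17 against 78.84.

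C03 was not uniform. Clustering its cells alone gave 5 groups. The largest, of 326 cells, was led by F13a1, Cbr2 and Ltc4s: coagulation factor XIII (F13a1) averaged 4.92 there against 0.557 in the rest, and Folr2 3.24 against 0.914. A second, of 272 cells, was led by genes of antigen presentation by MHC class II, with Cd74 at 210.0 against 88. A further 226 cells were led by interferon-induced genes, with Cxcl10 at 15.2 against 1.51 and Isg15 at 20.2 against 2.40. The remaining groups held 62 cells led by mitotic genes such as Birc5 (3.43 against 0.158) and 33 cells led by T cell genes such as Trbc2 (1.93 against 0.11). These genes made the groups, so their levels are a description, and group sizes are not compared between libraries because the same genes differ between them. The programs traded off across cells. The summed level of the resident-type list and that of the class II list had a Spearman rho of -0.54 over 374 WT cells and -0.62 over 545 S303/7A cells, and resident-type and interferon genes -0.52 and -0.51. Interferon and MHC class I genes went together, at 0.67 and 0.70. With cells thinned to 1000 UMIs, the resident-type and class II lists stood at -0.43 and -0.54. These correlations share each cell's total in their denominators, describe cells of 1 library each, and carry no test.

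Between the libraries, Hsf1 itself was low and similar in C03, at 0.115 UMIs per 10000 in WT and 0.0943 in S303/7A (31 and 68 UMIs, ratio of summed UMIs 0.78, 0.503 to 1.23). The mutation replaces amino acids, so this level does not check the genotype. Of 7247 genes found in at least 10% of C03 cells of a library, 171 were past 1.5-fold higher in S303/7A (2.36%) and 132 past 1.5-fold lower (1.82%). The median over all of them was 0.05, and with log2 ratios centred on that median the split became 120 higher and 162 lower. After thinning, 77 genes were higher and 64 lower. The same comparison in the other MF clusters rests on the same 2 libraries. Of the 171 higher genes 45 were also past 1.5-fold in C02, 78 in C05, 49 in C09 and 54 in C13. Among all genes compared in those clusters, 208 of 6836, 188 of 8647, 322 of 3331 and 216 of 8380 were past 1.5-fold higher. Of the 132 lower genes 78 were also past it in C02, 60 in C05, 55 in C09 and 45 in C13. Among all genes compared there, 296, 143, 194 and 125 were past 1.5-fold lower.

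The cluster's markers divided into those that were nearly level between the libraries and those that were not. Ccl8, Ccl12 and Ms4a7 were nearly level: the ratio of summed UMIs, S303/7A over WT, was 1.05 (1.02 to 1.07) for Ccl8, 1.01 (0.973 to 1.04) for Ccl12 and 0.934 (0.899 to 0.97) for Ms4a7. Ccl7, which is not among the 7 markers, was slightly lower, at 0.895 (0.857 to 0.936). Apoe was 3.22 times as high (3.17 to 3.27), with a log2 ratio of 1.67, and its 10th percentile over S303/7A cells, 72.9, lay above the WT median of 48.5. Selenop was 2.32 times as high (2.23 to 2.42), Folr2 2.30 times (2 to 2.64) and Pf4 1.72 times (1.66 to 1.79). Apoe, Selenop and Pf4 were higher in S303/7A in 5 of the 5 groups within C03, and Folr2 in 4 of 5. The groups are parts of the same 2 libraries and not replicates, and the smallest held only 8 WT cells. The same 4 genes were higher in S303/7A in the other MF clusters too: the log2 ratio of Apoe was between 1.11 and 1.66 there, that of Selenop between 0.57 and 1.65, that of Folr2 between 0.25 and 1.31 and that of Pf4 between 0.30 and 1.53. Ccl8 differed more elsewhere than in C03, at 0.90 in C02, 0.68 in C05, 0.63 in C09 and -0.65 in C13. These differences between clusters were not tested.

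Many genes of the resident-type list had higher levels in the S303/7A library. Of its 24 genes, 17 were found in 10% of C03 cells of a library, 3 of them (Ccl24, Fcna and Cd163) through S303/7A alone and Timd4 through WT alone, and 7 were too low to compare. Of the 17, 16 had a higher level, against 4184 of 7247 genes in all. Past 1.5-fold higher were 9 of the 17, against 171 of the 7247. The median log2 ratio was 0.63 against 0.05 for all genes. The filter favours a higher level in genes that passed through S303/7A alone. The greater depth there also lets a gene pass at a nearly equal level, as Cd163 did at 0.107 in WT and 0.112 in S303/7A. These counts therefore support nothing by themselves. With genes chosen instead by a mean level of at least 0.1 over both libraries, a filter added after the values had been seen, the median was 0.75. Cbr2, a carbonyl reductase gene, stood at 0.875 in WT and 2.92 in S303/7A, F13a1 at 1.15 and 2.76, Gas6 at 1.25 and 2.18, and Ccl24, a chemokine for eosinophils, at 0.0242 and 0.479 (5 and 347 UMIs). Fcna, a ficolin gene, stood at 0.0635 and 0.312. Of the genes too low to compare, Vsig4 and Cd209f were held by few cells, at 0.0262 and 0.152 and at 0.0304 and 0.25, and Cd209b and Cd209d had no UMI. Mrc1 and Stab1 differed less, with log2 ratios of 0.22 and 0.44, and Fcrls and Clec10a hardly, with 0.03 and 0.02. Cbr2 shares 42.1% of the words in its last 500 bases with other genes, and its value is uncertain to that extent. The list's median was 0.25 in C02, 0.96 in C05, 0.94 in C09 and 0.25 in C13.

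Timd4 was the exception. It encodes TIM-4, a receptor for phosphatidylserine on dying cells and a common marker of long-lived resident macrophages. Timd4 averaged 0.194 in WT C03 cells and 0.00537 in S303/7A, with 57 UMIs in the former and 3 in the latter in spite of the greater depth, and the ratio of summed UMIs was 0.0187 (0.00375 to 0.0575). It was found in 10.4% of WT and 0.55% of S303/7A cells, against 1.16% and none of the C07 cells, whose median depths were 4292 and 9020 UMIs. In C02, C09 and C13 of S303/7A Timd4 was at 0. In the WT library it was not particular to C03: C13 stood at 0.154, with a UMI in 12.6% of cells, and C05 at 0.0943. Within WT C03 it averaged 0.324 in the group led by interferon genes and 0.134 in the group led by F13a1. The gene lies at chr11:46810800-46844332, and none of its 31-base words occurs in another gene. Lyve1, another marker of such cells, was close to 0 in both, at 0.0176 and 0.0494.

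Most lipid, lysosome and iron genes compared were higher in S303/7A, with modest medians, beside 4184 of 7247 higher among all genes. This holds gene by gene and not for every summed level. Over all measured list members, the ratio of summed levels, S303/7A over WT, was 2.45 for lipid and 1.02 for lysosome genes. For iron and heme genes it was 0.894, so their summed level was lower in S303/7A. Of 17 lipid-handling genes 13 were higher, 4 past 1.5-fold, with a median of 0.30, beside 171 of 7247 past 1.5-fold higher among all genes. Beside Apoe, Trem2, a lipid-sensing receptor, stood at 2.77 in WT and 5.30 in S303/7A, and the sterol exporter Abca1 at 1.22 and 1.71. Against this, Nr1h3, the gene of the sterol sensor LXR alpha that drives Apoe and Abca1, stood at 0.505 and 0.375, Npc2 at 19.7 and 15.8 and the oxysterol-making Ch25h at 0.716 and 0.464. Without any filter on low values the list's median was 0.12. Of 24 lysosome genes 19 were higher (median 0.18), with Ctsd at 5.25 and 9.38 and Cd68 at 4.54 and 6.79, but Ctsc, the protease that activates granzymes, at 18.5 and 12.4. Of 15 iron and heme genes 13 were higher (median 0.26): the transferrin gene Trf stood at 1.72 and 3.61, the iron exporter Slc40a1 at 0.11 and 0.347, and the heme-degrading Hmox1 at 0.836 and 1.28. The ferritin heavy chain gene Fth1 was lower, at 183 and 147. The Fc receptor genes, whose products bind antibody, were divided: the inhibitory Fcgr2b (3.57 and 5.87), Fcgrt (1.85 and 3.44) and the activating Fcgr3 (6.86 and 9.83) were higher, and the activating Fcgr4 (5.93 and 3.67) and Fcgr1 (4.07 and 3.5) lower.

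Interferon-induced genes were lower in the S303/7A library. Of 46 compared genes 44 were lower, 15 of them past 1.5-fold, and the median was -0.49. Among all 7247 genes 3063 were lower, 132 of them past 1.5-fold. Isg15, a ubiquitin-like modifier, averaged 9.40 in WT and 5.00 in S303/7A (ratio of summed UMIs 0.475, 0.452 to 0.499). Cxcl10, which attracts activated T cells, averaged 6.69 and 3.65, Gbp2, a guanylate-binding protein gene, 2.12 and 1.09, and the transcription factor gene Irf7 6.79 and 4.08. Irf8 and Gbp7 were the exceptions, at 2.22 and 2.42 and at 1.46 and 1.61. The other MF clusters had lower medians as well, from -0.36 in C13 to -0.97 in C02. The summed level of the list had a median of 62.5 in WT and 34.1 in S303/7A. Its 10th percentile was 19.4 and 12.7, and its 90th 202 and 128. Above the WT median lay 160 of 545 S303/7A cells (29.4%, 25.6% to 33.4%), and 187 of 374 WT cells, a share that this limit fixes. Within 0.25 of the limit on the log2 scale lay 55 WT and 67 S303/7A cells. The share restates the lower median and does not show that fewer cells carried the program. Within the group of C03 cells led by interferon genes the direction was mixed: Isg15 averaged 20.2 in WT and 20.3 in S303/7A, Cxcl10 13.7 and 17.9 and Ifit3 4.25 and 5.39, but Oas3 1.2 and 1.1, Oasl1 1.65 and 1.52 and Cxcl9 13.6 and 10.2. When the 3 largest groups were given equal weight in each library, the list's median became 0.05. That weighting was added after the values had been seen, and the groups were themselves made from these genes.

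Interferon acts on such genes through short promoter elements. The following windows run from 250 bases before to 50 after the transcription start, from RefSeq on build GRCm38.p6, 5′ to 3′ on the gene's strand, for the 4 genes that lead the interferon group. Capitals mark matches on either strand to AAANNGAAA, the core bound by interferon regulatory factors, and overlapping matches run together.
Isg15: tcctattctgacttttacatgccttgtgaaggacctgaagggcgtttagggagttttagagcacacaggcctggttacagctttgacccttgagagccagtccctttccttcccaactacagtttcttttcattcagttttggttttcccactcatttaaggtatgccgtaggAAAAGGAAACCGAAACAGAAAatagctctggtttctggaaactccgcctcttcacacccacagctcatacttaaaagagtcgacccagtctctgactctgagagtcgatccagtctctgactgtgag
Ifit3: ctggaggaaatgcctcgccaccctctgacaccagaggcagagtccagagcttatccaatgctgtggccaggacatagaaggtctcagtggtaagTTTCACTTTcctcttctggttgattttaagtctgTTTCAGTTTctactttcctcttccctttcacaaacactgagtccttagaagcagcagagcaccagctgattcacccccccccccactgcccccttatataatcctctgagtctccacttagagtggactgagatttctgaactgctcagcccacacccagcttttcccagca
Rsad2: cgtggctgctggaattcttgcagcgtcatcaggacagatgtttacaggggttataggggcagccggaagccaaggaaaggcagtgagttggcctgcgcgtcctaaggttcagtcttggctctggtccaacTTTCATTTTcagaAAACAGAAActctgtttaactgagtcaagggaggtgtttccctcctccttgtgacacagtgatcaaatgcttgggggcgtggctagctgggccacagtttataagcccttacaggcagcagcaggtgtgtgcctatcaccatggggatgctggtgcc
Cxcl10: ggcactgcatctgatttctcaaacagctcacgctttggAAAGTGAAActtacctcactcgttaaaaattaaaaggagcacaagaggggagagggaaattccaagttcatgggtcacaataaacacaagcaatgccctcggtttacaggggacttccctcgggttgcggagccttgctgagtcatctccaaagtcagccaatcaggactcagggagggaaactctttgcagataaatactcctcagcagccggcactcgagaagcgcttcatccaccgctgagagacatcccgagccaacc
The windows lie at chr4:156200769-156201068 (minus strand), chr19:34583279-34583578 (plus), chr12:26456403-26456702 (minus) and chr5:92348840-92349139 (minus). Isg15 holds 3 overlapping matches that begin 77, 71 and 65 bases before the start, Ifit3 and Rsad2 hold 2 each, and Cxcl10 holds 1. Of the 46 list genes 36 matched a window, and 28 of those 36 held the core (77.8%), against 12.1% of 27025 genes with a window. Of the 7 cluster markers, Apoe, Selenop and Ms4a7 held it in a window, and Ccl8, Ccl12, Folr2 and Pf4 held none in theirs. A match describes the letters and not a bound site.

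MHC class I genes, many of them interferon-induced, were lower too: 18 of 20, 5 of them past 1.5-fold, with a median of -0.41. Beside this, 3063 of all 7247 genes were lower, 132 past 1.5-fold. H2-K1 stood at 22.3 in WT and 16.1 in S303/7A, H2-Q7 at 4.24 and 2.35, and the peptide transporter gene Tap1 at 1.79 and 1.14, while H2-D1 and B2m were level at 22.7 and 23.1 and at 70.3 and 68.4. The H2-Q and H2-T genes are close copies of one another, so counts may be shared among them. Class II genes had nearly equal means (median of 8 genes -0.05, with H2-Aa at 49.7 and 45.4 and Cd74 at 120.0 and 127) but were spread differently over cells. The 25th percentile of the summed class II level was 108 in WT and 17 in S303/7A, the median 246 and 194, and the 90th percentile was 617 and 671. So the S303/7A library held more cells with very little class II around a similar mean. The 10th percentile after thinning was 3 UMIs per 1000 in WT and 1 in S303/7A.

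**Figure D3:**
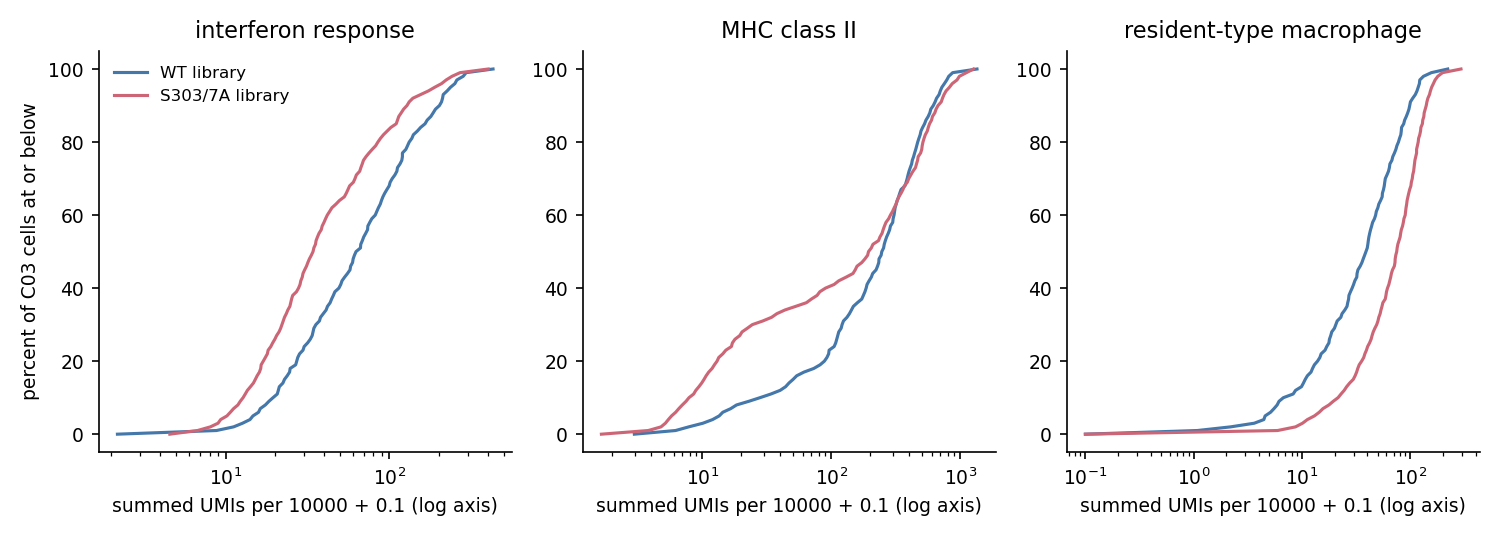
Share of C03 cells (vertical axis, percent) at or below a summed level of interferon response, MHC class II and resident-type genes (UMIs per 10000 plus 0.1, log axis), with 1 line per library. The S303/7A line lies left of WT for interferon genes (medians 34.1 and 62.5) and right of it for resident-type genes (74.7 and 38.8), and for class II it is far higher at low levels (25th percentiles 17 and 108).

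Heat shock genes, known targets of HSF1, were slightly lower in S303/7A C03 cells. Of 21 compared genes 17 were lower, 2 past 1.5-fold, with a median of -0.28. Of all 7247 genes 3063 were lower, 132 of them past 1.5-fold. Hspa1a, the stress-inducible HSP70, differed most, at 0.856 in WT and 0.254 in S303/7A (207 and 157 UMIs, ratio 0.27, 0.218 to 0.333). It was found in 26.7% and 6.79% of cells, or 7.22% (4.81% to 10.3%) and 1.47% (0.636% to 2.87%) after thinning. It was lower in 5 of the 5 groups within C03, which are parts of the same 2 libraries and not replicates. Dnaja1, a co-chaperone gene, stood at 1.40 and 0.878, Hsp90ab1 at 12.1 and 9.41 and Hspe1, the mitochondrial co-chaperonin, at 4.70 and 3.77. Hspa4 and Ahsa1 were level, at 0.521 and 0.52 and at 0.903 and 0.885, and Ubb, a ubiquitin gene, was slightly higher at 14.1 and 15.6. The median was -0.09 when the 89 WT and 159 S303/7A cells with a UMI of a gene marking another lineage were left out. In the other MF clusters Hspa1a had log2 ratios from -0.72 in C02 to -2.25 in C13. Hspa1a shares 65.4% of its 31-base words with other genes, above all its copy Hspa1b, though none in the last 500 bases, where 3′ end libraries read. Its window at chr17:34972107-34972406 (minus strand) is shown because it holds the heat shock element core, GAANNTTC, in capitals, 104 bases before the start.
Hspa1a: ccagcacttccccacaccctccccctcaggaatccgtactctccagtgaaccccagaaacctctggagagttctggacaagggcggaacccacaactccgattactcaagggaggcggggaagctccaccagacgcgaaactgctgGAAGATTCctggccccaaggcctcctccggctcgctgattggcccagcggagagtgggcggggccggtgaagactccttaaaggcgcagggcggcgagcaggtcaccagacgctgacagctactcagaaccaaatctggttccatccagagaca
That core was found in 11 of the 20 heat shock list genes with a window (55%), against 9.04% of all genes with one, and it reads the same on both strands. Of the cluster markers, Pf4 holds it.

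Immediate early genes respond within minutes to stimulation and to tissue dissociation. In C03 most were below the mean of the other 4 MF clusters, less so in S303/7A. They were not below every cluster: the summed list of C13 was lower, at 33.5 against 35 in WT and 34.6 against 41.7 in S303/7A. That of C05 in S303/7A was nearly equal to C03, at 41.5. Jun stood at 1.46 in WT and 2.72 in S303/7A (ratio 1.89, 1.68 to 2.13), Junb at 3.79 and 6.17 and Jund at 3.56 and 4.64, while Fos was level at 7.33 and 7.91 and Dusp1 stood at 3.19 and 2.75. Of 19 genes 12 were higher, a share near that of all genes (4184 of 7247), and 2 were past 1.5-fold higher, beside 171 of 7247. The median was 0.11, against -0.12, -0.12, -0.05 and -0.07 in C02, C05, C09 and C13, and it turned to -0.02 with the 3 largest groups weighted equally and to 0.31 with cells thinned. Jun had log2 ratios of 0.86 in C03 and of 0.03, 0.11, 0.01 and 0.43 there. The part of dissociation in these values was not tested.

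Some inflammatory and monocyte genes were lower. Of 17 inflammatory genes 12 were lower, 2 of them past 1.5-fold (median -0.35, or -0.10 without a filter on low values, -0.20 without cells that hold markers of other cells and -0.05 with the 3 largest groups weighted equally), beside 3063 of 7247 lower among all genes, with Il1b at 4.07 in WT and 2.70 in S303/7A, Il18bp at 2.01 and 1.39 and Cd40 at 0.675 and 0.389. Of 5 compared CXC chemokine genes 4 were lower, beside 3063 of 7247 among all genes, and Pf4 was higher. The summed level of the 11 measured was nearly equal, at 37.6 and 37.5. Cxcl9 stood at 8.02 and 4.68, Cxcl2, which draws neutrophils, at 0.58 and 0.203, and Cxcl16 at 7.8 and 6.67. Of 9 compared monocyte genes of 20, 6 were lower, 4 past 1.5-fold, beside 132 of 7247 past it among all genes. Plac8 stood at 5.43 and 1.23, Ccr2 at 1.28 and 0.635, and Thbs1 at 0.495 and 0.21, whereas S100a4 was level at 0.79 and 0.834. Ccr2 was not lower in every MF cluster, with a log2 ratio of 0.40 in C02 against -0.91 in C03. Markers of fibroblasts and tumor cells had the same direction: 5 of 5 compared (of 13) were lower in S303/7A in C03, beside 3063 of 7247 among all genes. Bgn and Col1a2 were among them. The 13 summed to 1.95 and 0.956, and their part in these differences was not tested. Respiratory chain genes were level (24 genes, median 0.03), as were hypoxia and glycolysis genes (19 genes, 0.05).

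**Figure D4:**
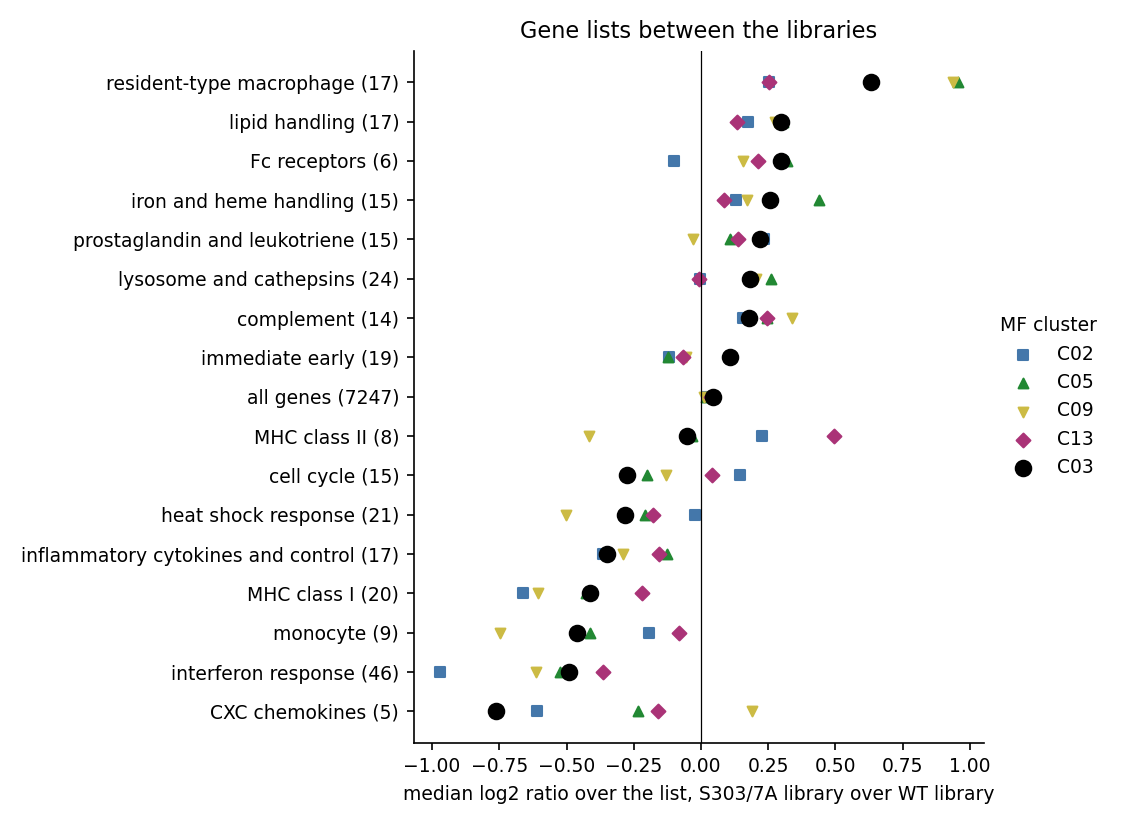
Median log2 ratio, S303/7A over WT, of 16 gene lists and of all genes compared in each MF cluster, with the number of genes compared in C03 in brackets. C03 (large black circles) runs from -0.76 for CXC chemokines to 0.63 for resident-type genes. The lowest is a median of 5 genes, which becomes -0.12 with the 3 largest groups within C03 weighted equally.

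The largest differences between the libraries in C03 included genes outside these lists. The highest log2 ratio, 4.42, belonged to Tpm3-rs7, a copy of the tropomyosin gene Tpm3. It stood at 0.031 in WT and 2.70 in S303/7A, while Tpm3 stood at 3.05 and 1.42, and the copies together at 3.08 and 4.12. They share 78.6% of the copy's 31-base words, so the division of reads between them is uncertain. Hgsnat, a lysosomal acetyltransferase gene, stood at 0.235 and 1.48, with log2 ratios of 2.23 in C03, 1.53 to 1.73 in C05, C09 and C13, and -0.20 in C02. Hpgd, which degrades prostaglandins, stood at 0.0228 and 0.39, and Mgst1, a glutathione transferase gene, at 0.244 and 0.768. Cd200r4, a paired activating receptor, had no UMI in 374 WT cells, which at that depth allows a UMI in up to 0.802% of cells and sets no limit on cells that express the gene, and 104 UMIs in S303/7A, at least 12.3-fold higher against a floor of 3 UMIs over the WT cells. At the other end, Ppfia4 stood at 1.23 and 0.14, Klrk1, which encodes the activating receptor NKG2D, at 1.86 and 0.484, the interferon-induced Ifi202b at 0.631 and 0.145 and Tgm2, a transglutaminase used in the uptake of dying cells, at 1.56 and 0.6. Of the 15 highest and 15 lowest genes, 13 each kept their direction in all 4 other MF clusters. Hgsnat and Ccl24 were lower in C02, Clec4b1 was higher in C02 and C05, and Cxcl2 was higher in C09.

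A few genes differed between the libraries more in C03 than in any other MF cluster, with no test of that difference. Cd37, a tetraspanin gene, stood at 0.156 in WT and 0.562 in S303/7A, a log2 ratio of 1.37 against 0.17 to 0.78 in the other clusters, and Hist1h1c, a linker histone gene, at 0.493 and 1.43 (log2 ratio 1.36 against 0.16 to 0.93). Trio, a guanine nucleotide exchange factor gene, had a log2 ratio of 0.83 against 0.13 to 0.29. On the lower side, Cd72, an inhibitory lectin-like receptor gene, stood at 5.97 and 3.53 (log2 ratio -0.74 against -0.38 to -0.24) and the cell cycle gene Cks1b at 0.805 and 0.392 (-0.88 against -0.42 to 0.13). These genes were picked for that gap, so it supports nothing further.

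**Figure D5:**
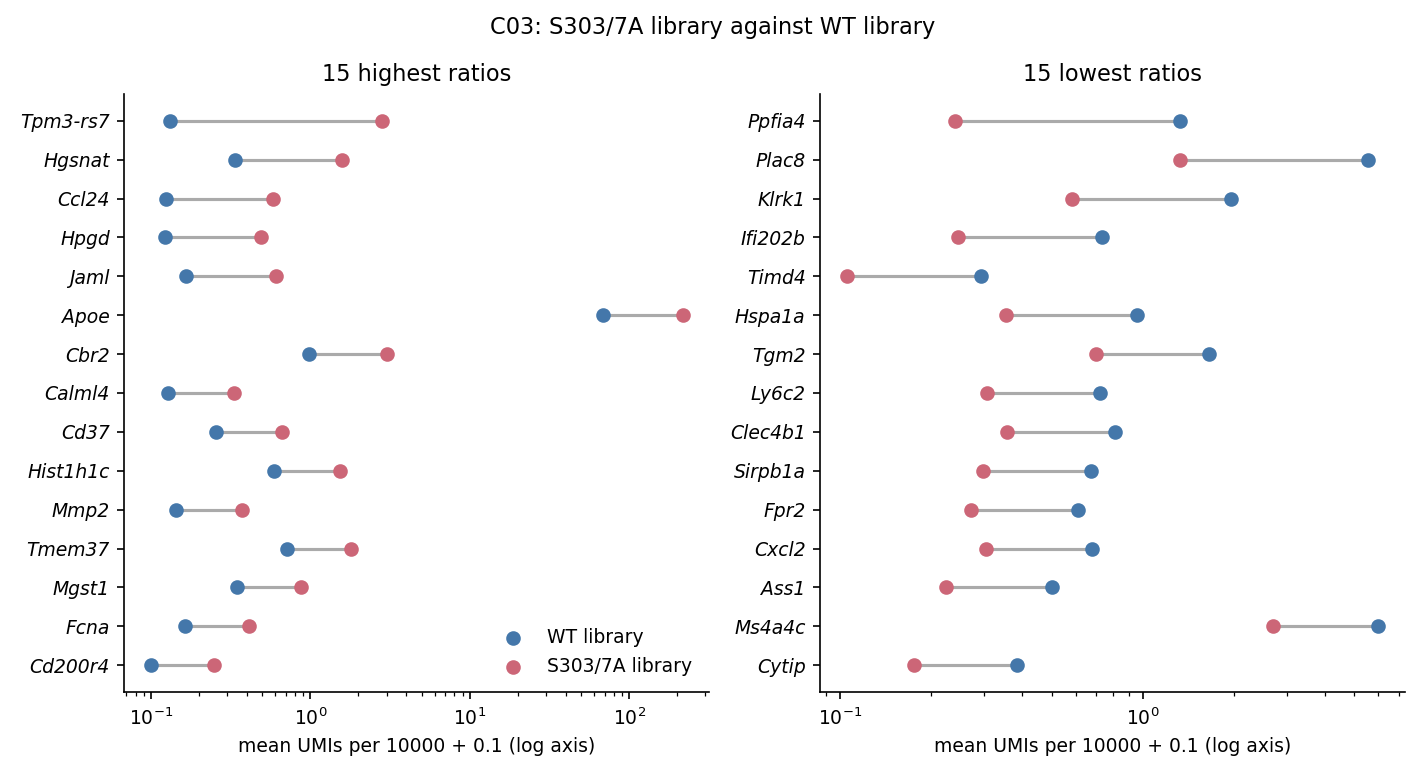
Mean level (UMIs per 10000 plus 0.1, log axis) in C03 of the 15 genes with the highest and the 15 with the lowest ratio between the libraries, with 1 point per library. Apoe is the only gene among them above 10 UMIs per 10000, at 67.8 and 216.

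C03 made up 18.9% (17.2% to 20.7%) of MF cells in WT and 26.2% (24.3% to 28.1%) in S303/7A, 374 of 1983 and 545 of 2082 cells. The intervals do not overlap but cover the counting of cells only. Markers of the cluster differ between the libraries, so the assignment of cells to C03 may differ as well, and the sort and the digestion of 1 pool per genotype cannot be told apart from the genotype. Over all CD45-positive classes the shares were 8.99% and 14.6%. The ratio of shares among MF cells, 1.39 (1.21 to 1.59) for C03, was 1.39 for C05, 1.65 for C13, 0.714 for C02 and 0.516 for the shallow cluster C09, and it was 1.24 (1.09 to 1.42) for C03 with C09 left out.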

How the data were processed

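Single-cell RNA-seq was made from 2 libraries, 1 per genotype, and no p-value was computed. Per the submitters' processing notes, Cell Ranger and Seurat 3.0 were used with builds mm10 and GRCm38; no source used here states how cells were filtered. The authors deposited the natural log of 1 plus UMIs per 100000 UMIs of the cell, total UMI and detected gene counts, and the mitochondrial percent, and their clusters and classes were used as deposited. Undoing the log gave whole UMIs within 0.1 for 99.94% of nonzero values, with totals within 3 UMIs of the deposited counts in all 11456 cells over 16416 genes.

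Cells were summed or averaged by cluster and library (Python 3.11.15, numpy 2.4.6, scipy 1.17.1, pandas 2.3.3). Log2 ratios used a pseudocount of 0.1 UMIs per 10000. Genes counted as past a limit at 2-fold in both libraries (C03 over the equally weighted mean of 4 clusters) or 1.5-fold (between libraries), if found in 10% or more of the cells of a library. Shares carry exact (Clopper-Pearson) intervals and ratios of summed UMIs exact conditional ones, all for counting error only. The depth of C03 cells ran from 1544 to 18387 UMIs in WT and from 2434 to 29515 in S303/7A. Groups within C03 came from Leiden clustering (scanpy 1.11.5, leidenalg 0.10.2). The scripts were tested on simulated data. The automatic doublet call of Scrublet marked 55 cells in WT and 4 in S303/7A, where 0.0833% is too few for it to have worked, and none in C03, so no cell was removed, and removal at the expected rate, 2 and 4 C03 cells, was an alternative.

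Named genes are the 20 highest and 15 lowest between clusters, the 15 highest and 15 lowest between libraries, the 8 farthest above and below the other MF clusters, the markers, Hsf1, and the largest or most abundant members of 35 lists, leaving out mitochondrial, ribosomal, Gm and Rik genes and receptor segments. Other list members are named as examples chosen after their values were seen. The members and lists were chosen with earlier results of these data known. Gene positions are from GENCODE M21, shared 31-base words from its transcripts, and promoters from RefSeq.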

Additional observations from a re-analysis of the deposited data

Results flagged for a closer look

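In 10 cases the difference between the libraries in C03 had the opposite sign to that in all 4 other MF clusters, and in none was the difference between clusters itself tested. All of them are small. The immediate early list had a median log2 ratio of 0.11 in C03, with Jun and Junb highest, but -0.02 with the 3 largest groups weighted equally and 0.31 with cells thinned. The checkpoint and T cell contact genes had one of 0.0064, too close to 0 for its sign to mean much. Higher in S303/7A in C03 and lower elsewhere were Limd1 (0.44), an adaptor of cell junctions, the immediate early gene Ier3 (0.28) and the nuclear receptor coactivator gene Pnrc1 (0.26). Lower in C03 and higher elsewhere were Sh3pxd2b (-0.31), which encodes a podosome scaffold, the ubiquitin ligase gene Mib1 (-0.28), Rinl (-0.26), the lipid kinase gene Pip4k2a (-0.25) and the growth regulator gene Pa2g4 (-0.10). For Pip4k2a, Pa2g4, Mib1 and Rinl the interval of the ratio of summed UMIs in C03 includes 1.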

How the results depend on the processing

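C03's share of MF cells was 1.388 times as high in S303/7A as in WT, and 1.625 times when taken of CD45-positive cells. Counts past a fold depended on the pseudocount and the depth. Genes higher in C03 numbered 11, and 4 with a pseudocount of 1, 5 with cells thinned to 1000 UMIs, 23 with the other MF cells pooled, 24 without C13 and 28 with C07 added. Lower genes numbered 167, and 439, 16 and 61 with pseudocounts of 0.01 and 1 and thinning. Higher genes in S303/7A went from 171 to 561, 20 and 77, and lower ones from 132 to 242, 19 and 64, under the same settings, and the latter to 86 when found in 25% of cells and 74 with 3 groups weighted equally. With a pseudocount of 1, the medians between libraries became 0.35 for resident-type, 0.12 for lipid (0.12 also without a filter), -0.27 for class I, -0.24 for interferon and -0.0878 for heat shock genes, which stood at -0.0898 without cells holding other lineages' markers. With 3 groups weighted equally they became 0.20 for lipid, -0.20 for class I, 0.0495 for interferon, which is reversed, and -0.0209 for immediate early genes, which stood at 0.31 when thinned. The causes were not tested. Apoe was higher in S303/7A under 13 of 13 alternatives. The alternatives added after seeing the data were the equal weighting, the filter on mean level, the comparator without C05 and leaving out the group led by T cell genes. No paired analysis was possible because each genotype has 1 library. Pooled animals, 1 library each and the unequal depth limit every comparison of the genotypes.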

Other observations

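Growth factor and matrix genes of C03 were mixed between the libraries, with 8 of 18 higher, beside 4184 of 7247 among all genes, and a median log2 ratio of -0.05. Timp2, a protease inhibitor gene, stood at 3.11 UMIs per 10000 in WT and 4.71 in S303/7A, and the gelatinase gene Mmp2 at 0.0441 and 0.27, whereas the collagenase gene Mmp13 stood at 0.509 and 0.272. Spp1, which encodes osteopontin, was level at 2.06 and 2.01. Prostaglandin and leukotriene genes were higher for 12 of 15 (median 0.22), beside 4184 of 7247 among all genes, with Ptgs1 at 0.459 and 0.669 and Ltc4s at 0.648 and 1.03, beside Ptgs2, the inducible cyclooxygenase, at 0.121 and 0.0278.

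Genes by which macrophages meet T cells differed one by one. Cd274, which encodes PD-L1, stood at 0.426 in WT and 0.262 in S303/7A, and Cd86 at 0.904 and 1.06, while Vsir and Sirpa were level at 2.20 and 2.28 and at 3.56 and 3.45. Of the macrophage transcription factors, Batf3 stood at 0.803 and 0.483 and Runx3 at 1.17 and 0.717, Cebpa at 0.738 and 1.21 and Klf2 at 1.26 and 1.89, with Irf8 nearly level at 2.22 and 2.42. Cd209g was held by 5 of 545 S303/7A cells with 107 UMIs in all and by no WT cell, so a few cells set its level.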
